A study of Mus musculus with 2 samples.

Results

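The 9 genes described here encode the REV-ERB receptors (Nr1d1, Nr1d2), 2 ROR receptors (Rora, Rorb) and 5 clock genes described as controlled through the REV-ERB and ROR response element (Arntl, Clock, Npas2, Cry1, Nfil3). They were taken by name from a table of 22838 genes, and all 9 had a row. The rule names them by their known roles and sets no threshold on expression, though it was written with earlier results of these data known. Messenger RNA was sequenced from NIH3T3 cells, an established line of mouse embryonic fibroblasts, as 1 library of untreated cells and 1 library of cells that received ALA at 100 µM over 16 h. Only the abbreviation stands in the labels; in heme research ALA is δ-aminolevulinic acid, the precursor from which heme is made. Both libraries come from the same line and carry no genetic change named in the labels, and the title of the series ties heme synthesis to circadian rhythms.

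REV-ERBα and REV-ERBβ are nuclear receptors that bind heme and, with heme bound, recruit the corepressor NCoR and the histone deacetylase HDAC3 to shut genes off. The ROR receptors bind the same DNA element, the RORE, and switch genes on. Through this pair of opposing inputs the expression of Arntl, which encodes BMAL1, oscillates, and BMAL1 with CLOCK in turn drives the genes of its own repressors through E-boxes. In fibroblasts this loop runs in each cell, and cultures lose a common phase unless they are synchronised.

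Matches to the core of the element that both receptor families share are shown first, as letters found in some of the promoters. Binding of the receptors to these stretches was not measured. RefSeq (build GRCm38.p6) gave 13 annotated starts for the 9 genes, each with a window of 300 bases, 250 before and 50 after the start. On both strands, exact matches to the RORE half-site AGGTCA were found in 4 of the 13 windows, 1 each for Arntl, Nfil3, Nr1d2 and Clock. The half-site occurs in 16.3% of all 32851 promoter windows. With the preceding T that the full element carries, TAGGTCA, it was found for Arntl and Nfil3 and in 2.61% of all windows; each of these matches also counts as a half-site. The variant TGGGTCA was in none of the 13 windows and in 3.98% of all. These are descriptions of letters, and the A/T-rich stretch in front of the full element was not part of the search.

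The 4 stretches of 30 bases that hold the half-site are printed on the strand on which it reads as AGGTCA, with the longest match in capitals, so that the bases in front of it can be compared:
Arntl: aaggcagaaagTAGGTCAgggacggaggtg
Nfil3: gatgtgtgttagTAGGTCAgttccgagcgc
Nr1d2: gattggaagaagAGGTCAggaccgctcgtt
Clock: ctgtcatctgtcAGGTCAgaggccaaagct

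The Arntl match lies at chr7:113207530-113207559, plus strand, where its TAGGTCA covers bases 31 to 37 of the transcript that begins at the more downstream of the 2 annotated starts, so it is exonic in that transcript. The Nfil3 stretch lies at chr13:52981033-52981062 on the plus strand, opposite to the gene, and its match ends 6 bases before the start. In Nr1d2 (chr14:18239166-18239195, minus strand) the half-site begins 77 bases before the start. In Clock (chr5:76303604-76303633, plus strand) it lies 119 to 114 bases before the most downstream of 3 starts. The windows of Nr1d1, Rora and Npas2 held none of the motifs searched.

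Cry1 differed from Arntl and Nfil3 in this window: it held no half-site but had the E-box CACGTG, the element of BMAL1 and CLOCK, 60 to 55 bases before its start, a motif found in 7.15% of all windows. The 250 bases before the starts of both genes are printed on the gene's strand, with the Cry1 E-box and the Nfil3 match (which reads TGACCTA on this strand) in capitals. Their coordinates are chr13:52981040-52981289 and chr10:85185055-85185304, both on the minus strand.
Nfil3: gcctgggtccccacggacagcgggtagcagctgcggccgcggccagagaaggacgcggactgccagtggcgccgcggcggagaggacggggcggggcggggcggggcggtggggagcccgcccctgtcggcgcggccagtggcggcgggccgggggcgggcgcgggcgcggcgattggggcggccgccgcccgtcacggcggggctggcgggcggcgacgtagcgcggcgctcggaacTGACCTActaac
Cry1: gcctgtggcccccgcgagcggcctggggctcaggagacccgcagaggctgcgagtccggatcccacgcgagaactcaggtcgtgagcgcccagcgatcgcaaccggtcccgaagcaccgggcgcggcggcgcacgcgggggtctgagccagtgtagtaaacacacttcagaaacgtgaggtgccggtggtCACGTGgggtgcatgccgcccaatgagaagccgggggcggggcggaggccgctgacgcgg

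Both stretches are rich in G and C, 81.6% for Nfil3 and 71.2% for Cry1. The D-box TTANNTAA, bound by the activator DBP and by the repressor that Nfil3 encodes, was found once among the members, in the window of 1 Rorb start, and in 1972 of the 32851 windows.

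**Figure D1:**
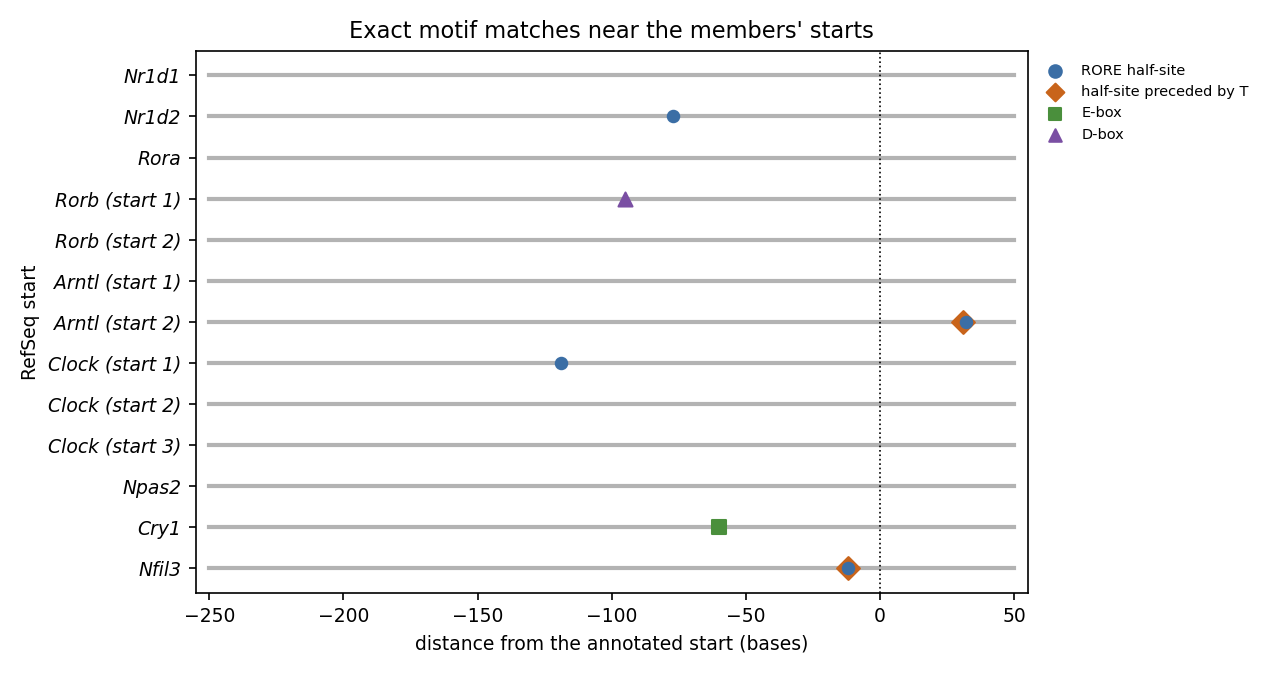
Exact motif matches in the windows around the 13 RefSeq starts of the 9 genes; the horizontal axis is the distance from the annotated start in bases, each grey line is 1 window, starts of a gene are numbered by rising coordinate, and each symbol is the first base of 1 match. The RORE half-site preceded by T sits close to the start in Arntl (start 2) and Nfil3, and the only E-box is that of Cry1.

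From the value that 1 read takes in low genes, depth was estimated at about 23400000 reads for untreated cells (21600000 to 25200000) and 30000000 reads for ALA (27600000 to 32900000). The ranges in brackets give the width, near its top, of the peak formed by these low values. They are not confidence intervals, and the intervals of the folds below use the point estimates only. As a check of the exposure, Alas1, whose transcription heme represses, had 10.2 FPKM (fragments per kilobase of transcript, scaled to the number of mapped fragments) untreated and 4.52 FPKM with ALA, and Hmox1, the heme-inducible oxygenase, had 66.8 and 139 FPKM. Exons of an antisense gene, 4930500F10Rik, cover 11.7% of the exon bases of Alas1. Srrd, the gene in the series title, had 2.11 and 9.76 FPKM, on about 55 and 325 reads. As the subject of the series, it is no independent check. Exons of other genes cover 38.0% of its exon bases. All 9 fibroblast markers examined were above 1 FPKM, from 19.7 FPKM (Pdgfrb) to 4976 FPKM (S100a4) in untreated cells. With ALA 8 of the 9 were lower (median -0.26 on the log2 scale), where 52.2% of all genes averaging 1 FPKM or more were lower. Thy1 (60.2 and 38.8 FPKM) and Pdgfra (57.6 and 36.6 FPKM) were past 1.5-fold on that scale. Of all genes at that level 13.1% were past this size in either direction, 7.16% lower. Markers of other cell types were mixed: Epcam and Krt18 (epithelium), Myod1 and Myog (muscle), Kdr (endothelium) and Rbfox3 (neurons) were listed at 0 in both libraries. Of the same lists Krt14 had 84.2 and 114 FPKM, Cdh1 1.23 and 0.944 FPKM, Des 1.95 and 1.12 FPKM, Tubb3 1.97 and 3.06 FPKM, and Pecam1 0.126 and 0.748 FPKM. The 5 macrophage markers summed to 29.5 FPKM untreated and 17.2 FPKM with ALA, most of it from Lyz2 (15.2 and 9.59 FPKM) and Cd14 (13.1 and 4.69 FPKM). Cd68 (0.237 and 1.40 FPKM) and Aif1 (0.949 and 1.42 FPKM) were higher with ALA, and Csf1r had 0 and 0.0466 FPKM. The part of these markers in the values below was not tested.

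Of the 9 members, 7 were expressed and 2 were close to absent. A gene is called measured if its 2 values average 1 FPKM or more, which holds for 10929 genes. Differences are given as log2((ALA FPKM + 1)/(untreated FPKM + 1)), a scale that understates what low genes do, and folds are plain ratios of FPKM. Each group is a single library, so the differences could not be checked in replicates and no test was made. The intervals beside folds are approximate exact (Clopper-Pearson) 95% intervals from estimated reads and cover counting error only, not the variation between cultures. Cells were also taken at 1 time only, so a shifted clock phase and a changed level cannot be told apart.

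The REV-ERB receptors stood at the top of the group. Nr1d1, on the minus strand of chromosome 11 (98767932 to 98775377, mm10), had 47.6 FPKM in untreated cells and 46.9 FPKM with ALA. The log2 ratio was -0.02 and the fold 0.986 (interval 0.940 to 1.03), so the main heme-binding receptor gene of the group was level between the libraries within counting error. In untreated cells 92.0% of all genes of the table had a lower value, a share that includes the 9187 of 22838 genes at 0 in that library.

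Nr1d1 is read from the strand opposite to Thra, the gene of thyroid hormone receptor α, and the ends of both genes overlap. In the GENCODE M21 annotation 263 exon bases, 9.67% of those of Nr1d1, lie inside exons of Thra, whereas the Thra locus in the deposited table ends before that of Nr1d1 begins. Thra had 64.2 FPKM untreated and 47.4 FPKM with ALA, and its log2 ratio was -0.43. The level value of Nr1d1 thus stands beside a lower value of its neighbour, and the sum of both was 112 FPKM untreated and 94.3 FPKM with ALA. No strand setting is given, so reads of the shared bases cannot be assigned with certainty.

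Nr1d2, which encodes REV-ERBβ, was higher with ALA. Its values were 20.6 FPKM in untreated cells and 26.0 FPKM with ALA, a fold of 1.26 (interval 1.20 to 1.33) and a log2 ratio of 0.32. The proportion of both REV-ERB genes differed between the libraries: Nr1d1 was 2.31 times as high as Nr1d2 per length in untreated cells and 1.81 times with ALA. Nr1d2 (chromosome 14, 18204056 to 18239106, minus strand) overlaps no other exon. Of its 41-base stretches, the read length, 8.18% also occur in other gene models, with AC170187.1 sharing the most.

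Of the 2 ROR activators among the 9 genes, only Rora was measured. Rora, whose locus spans 68653786 to 69388246 on the plus strand of chromosome 9, had 7.28 FPKM untreated and 5.41 FPKM with ALA. It was 1.35-fold lower with ALA (interval 1.26 to 1.44), a log2 ratio of -0.37. Rorb, a receptor gene known mainly from the nervous system, had 0.0115 and 0.0191 FPKM, or about 2 and 5 reads.

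Set side by side per length, repressor messages outnumbered activator messages in both libraries. The 2 REV-ERB genes summed to 68.2 FPKM untreated and 72.9 FPKM with ALA. Rora and Rorb summed to 7.30 and 5.43 FPKM. The REV-ERB sum was thus 9.35 times the ROR sum in untreated cells and 13.4 times with ALA, a ratio that was 1.44 times as high. Its parts, Nr1d2 upward and Rora downward, contribute in the same direction, and Nr1d1, the most abundant of them, hardly at all. Message ratios say nothing of receptor protein or of bound heme, which were not measured.

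Among the RORE-controlled targets, the activators of the clock were slightly lower with ALA. Arntl (chromosome 7, 113207465 to 113314126, plus strand) had 13.5 FPKM untreated and 12.1 FPKM with ALA, 1.11-fold lower (interval 1.02 to 1.22) and at -0.14 on the log2 scale. Among measured genes 65.1% had a log2 ratio at least as far from 0, so the difference was smaller than that of most genes. Clock, which encodes the partner of BMAL1 (chromosome 5, 76209868 to 76304792, minus strand), had 10.5 and 8.47 FPKM, 1.24-fold lower (interval 1.17 to 1.31) with a log2 ratio of -0.28. The ratio of Arntl to Clock was 1.28 in untreated cells and 1.43 with ALA.

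Npas2, which can take the place of Clock beside BMAL1 in some tissues, was not expressed to a usable level in either library. Its values were 0.00959 FPKM and 0.0279 FPKM, about 1 and 4 reads over a transcript of 4236 bp. The fold of 2.91 has a counting interval of 0.308 to 153, and that of Rorb, 1.66, one of 0.318 to 20.4, so for neither gene was a difference detectable at this depth. Clock was therefore the partner gene whose message was present.

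Cry1 showed the largest difference among the 9 genes on the log2 scale. Cry1, the cryptochrome that represses BMAL1 and CLOCK late in the cycle (chromosome 10, 85131700 to 85185054, minus strand), had 4.46 FPKM untreated and 7.27 FPKM with ALA. It was 1.63-fold higher (interval 1.43 to 1.87), on about 315 and 661 reads, with a log2 ratio of 0.60. Of all measured genes 12.6% had a ratio at least as far from 0. No base of its exons lies in an exon of another gene, and none of its 41-base stretches occurs in another gene's annotated transcripts.

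Nfil3, the gene of a repressor that competes with DBP, TEF and HLF at the D-box, went the other way. It had 11.7 FPKM untreated and 9.03 FPKM with ALA, 1.29-fold lower (interval 1.15 to 1.46) with a log2 ratio of -0.34. The gene lies at 52967209 to 52981039 on the minus strand of chromosome 13 and is a short gene of 2 exons. Beside the motifs printed above, directions were mixed. Arntl and Nfil3 with the T-preceded half-site were lower, as were Clock with the half-site alone and Rora with neither. Nr1d2 with the half-site and Cry1 without it in its window were higher. Sequence outside the windows was not searched, and a link between motif and direction was not tested.

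**Figure D2:**
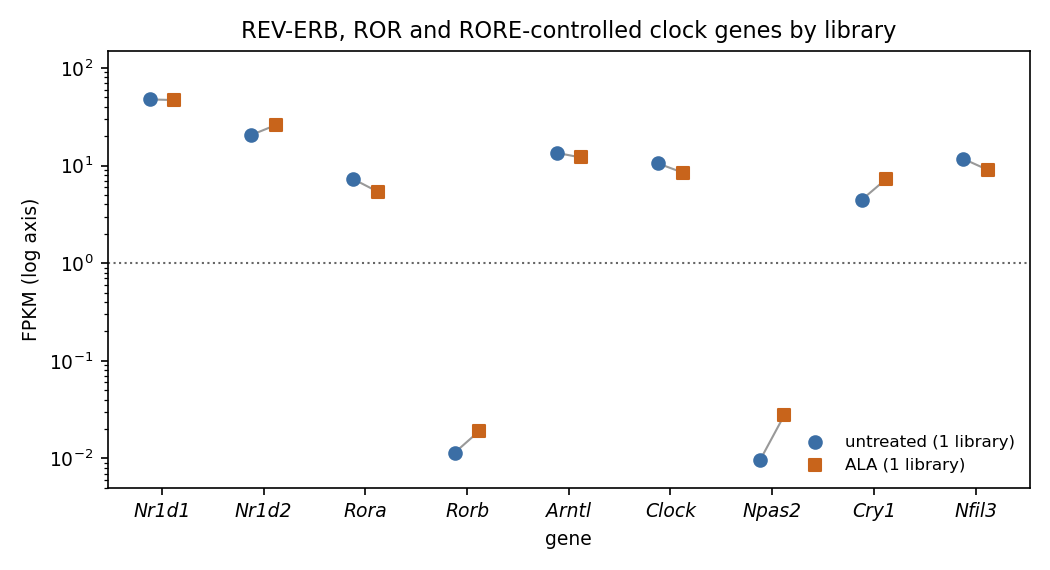
FPKM on a log axis for the 9 genes, with 1 point per library (circle untreated, square ALA) joined by a line; the dotted line marks 1 FPKM. Nr1d1 is highest at 47.6 and 46.9 FPKM, Cry1 has the steepest upward line among expressed genes, and Rorb and Npas2 lie below 0.1 FPKM in both libraries.

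The order of the levels was nearly the same in both libraries. From high to low it ran Nr1d1, Nr1d2, Arntl, Nfil3, Clock, Rora and Cry1 in untreated cells. With ALA, Cry1 (7.27 FPKM) stood above Rora (5.41 FPKM), and the other 5 kept their places. Nfil3 and Clock were close neighbours, 11.7 against 10.5 FPKM untreated and 9.03 against 8.47 FPKM with ALA. Without replicates the spread behind such gaps is not known.

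Counted together, 2 of the 7 measured members were higher and 5 lower with ALA, where 47.8% of all measured genes were higher and 52.2% lower, with a median log2 ratio of -0.14 against -0.019 over all measured genes. At least 1.5-fold apart was 1 member, Cry1, where 13.1% of measured genes passed that size (5.90% higher and 7.16% lower). At least 2-fold apart was none, where 3.50% of measured genes passed (1.49% higher and 2.01% lower). A count of 1 in 7 is near the background and is no result about the group. Rora, Arntl, Clock, Cry1 and Nfil3 averaged between 5 and 15 FPKM, as did 3490 genes in all, 95% of which had log2 ratios from -0.90 to 0.79; all 5 lay inside that range. Between 15 and 60 FPKM the same range was -0.66 to 0.62, which encloses Nr1d1 and Nr1d2.

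**Figure D3:**
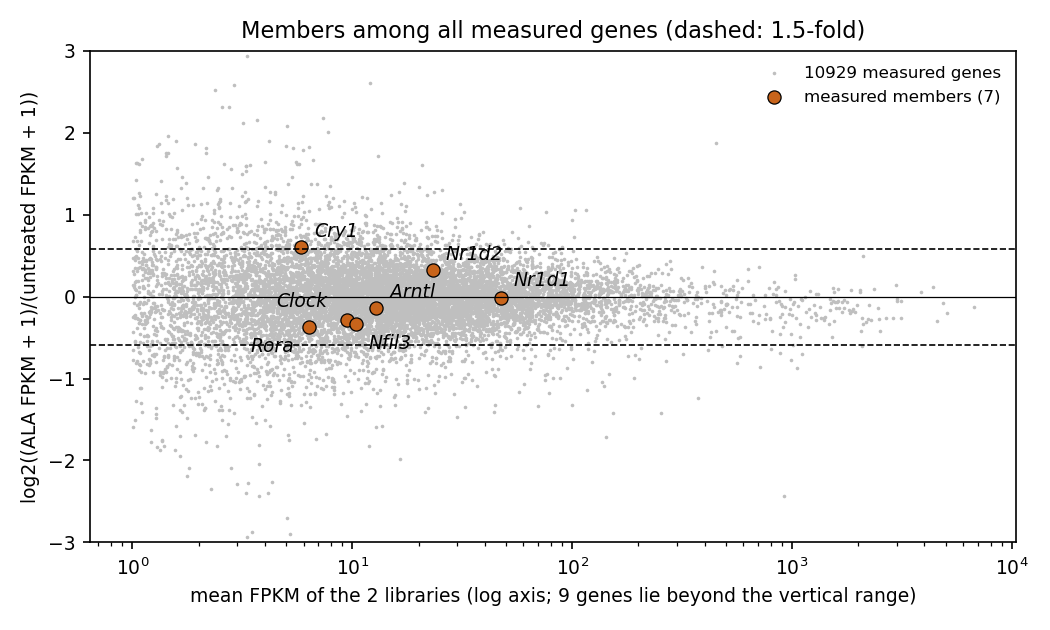
Log2 ratio of ALA to untreated (after adding 1 FPKM) against the mean FPKM of both libraries on a log axis, for 10929 measured genes in grey and the 7 measured members in orange; dashed lines mark 1.5-fold, and 9 genes lie outside the vertical range. The members lie within the cloud of all genes, and Cry1, at 0.60, is the one at the upper dashed line.

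Genes of the proteins through which REV-ERB and ROR act are given next. Of 20 genes listed as cofactors or turnover factors, 17 were measured, 10 higher and 7 lower, with a median log2 ratio of 0.03. None was 1.5-fold apart, beside 13.1% of all measured genes. Ncor1, the corepressor that REV-ERBα recruits, had 39.5 FPKM untreated and 40.3 FPKM with ALA. Hdac3, the deacetylase of that complex, had 40.3 and 38.7 FPKM. The largest ratios of the list were those of Siah2, a ubiquitin ligase described as acting on REV-ERBα, at 0.45 (1.43-fold higher, from 5.58 FPKM), the coactivators Ncoa2 at 0.40 (11.8 and 15.8 FPKM) and Ncoa1 at -0.35 (5.88 and 4.40 FPKM), and the corepressor subunits Tbl1x and Tbl1xr1, both at 0.20, as was the ubiquitin ligase Huwe1.

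Ppargc1a, which encodes the coactivator PGC-1α of the ROR receptors and is also described as a REV-ERB target, was a low gene that differed widely; it was singled out after its values were seen. It had 0.241 FPKM untreated and 0.0111 FPKM with ALA, about 36 and 2 reads. This is a 21.8-fold lower value with a counting interval of 5.96 to 198, while the log2 ratio after adding 1 FPKM was only -0.30. Its relative Ppargc1b had 1.08 and 0.815 FPKM, with an interval of the fold from 0.556 to 1.02.

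On the E-box side of the loop, 3 of 10 listed genes were at least 1.5-fold apart, beside 13.1% of all measured genes. All 10 were measured; 3 were higher and 7 lower, with a median of -0.30. Ciart, a repressor of BMAL1 and CLOCK, was 3.19-fold higher (1.16 and 3.72 FPKM, interval 2.23 to 4.68). It rests on about 38 and 156 reads, and 27.7% of its 41-base stretches also occur in other genes. Bhlhe40, a repressor that competes at E-boxes, was 2.06-fold lower (46.9 and 22.8 FPKM), and Hlf, a D-box activator, 2.47-fold lower (2.07 and 0.841 FPKM). These were the 3 genes past that size on the log2 scale. Whether this list differs from the members was not tested.

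The 2 cryptochrome genes differed in opposite directions. Cry2, the paralog of Cry1, had 13.0 FPKM untreated and 8.52 FPKM with ALA, 1.53-fold lower (interval 1.40 to 1.66) and at -0.56 on the log2 scale. The ratio of Cry1 to Cry2 was 0.343 in untreated cells and 0.853 with ALA, 2.49 times as high. The ratio of Cry1 to Arntl was 0.331 and 0.602. The D-box pair of repressor and activator kept closer proportions: Nfil3 was 0.268 times Dbp untreated and 0.214 times with ALA, with 43.5 and 42.2 FPKM for Dbp, 29.3% of whose exon sequence is shared with other genes.

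Other genes described as REV-ERB or ROR targets, mostly in liver, fat or macrophages, were in part not expressed in these fibroblasts. Of 16 listed, 6 were measured, 1 higher and 5 lower (52.2% of all measured genes were lower), with a median of -0.30, and 6 (Il6, Apoc3, Elovl3, G6pc, Fgf21 and Fabp7) were listed at 0 in both libraries. Ccl2, a chemokine gene, was 1.65-fold lower (241 and 146 FPKM) and the only one of the 6 past 1.5-fold on the log2 scale, beside 13.1% of all measured genes. Ulk1, an autophagy kinase gene, stood at -0.55 (11.6 and 7.60 FPKM), and the cell cycle inhibitor gene Cdkn1a at -0.37 (214 and 166 FPKM). Insig2, a regulator of sterol synthesis, was at -0.23 (67.3 and 57.3 FPKM), and Lpl, the lipoprotein lipase gene, was the 1 higher gene at 0.03.

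**Figure D4:**
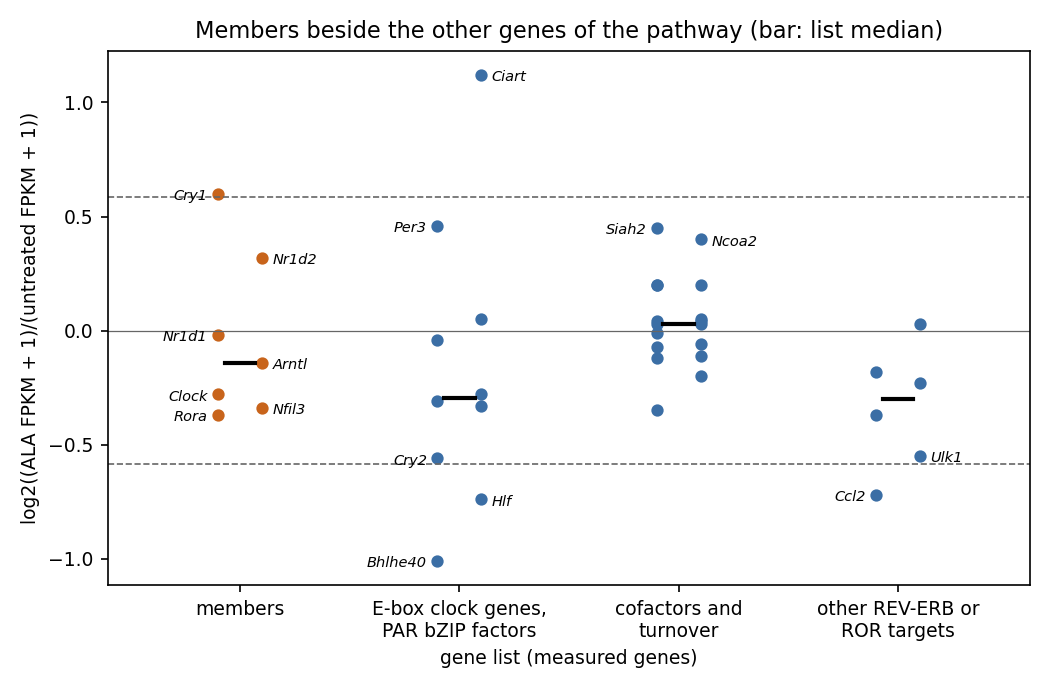
Log2 ratios of ALA to untreated (after adding 1 FPKM) for the measured genes of 4 lists, 1 point per gene, with short bars at the list medians and dashed lines at 1.5-fold. The members lie between -0.37 and 0.60, the cofactors stay between the dashed lines, and the E-box list reaches from -1.01 (Bhlhe40) to 1.12 (Ciart).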

How the data were processed

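The table holds 1 FPKM value per gene and library, which the authors made and deposited as a Cufflinks tracking table, per the file headers. The TruSeq RNA kit and single reads of 41 bases were used, per the labels' protocols. FastQC 0.11.5, TopHat2 2.1.1, Cufflinks 2.2.1 and build mm10 are named, per the submitters' processing notes; annotation, options, strand setting and the scaling of the libraries: not given in the sources used here. The deposited interval bounds are equal in every row and carry no error. A count model was not applied to FPKM values, and there are no replicates to test.

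Log2 ratios used a pseudocount of 1, and counts of genes a minimum mean of 1 FPKM. Depth was estimated as the inverse of the most frequent low value of FPKM times length, over genes with a single RefSeq-matched transcript longer than 1500 bp. Reads per gene are that depth times FPKM times the longest such transcript. Overlaps and shared 41-base stretches came from GENCODE M21 (GRCm38, the assembly of mm10), counting exact matches to other genes' transcripts on either strand. All 9 members matched a gene model and a RefSeq promoter. Python 3.11.15, numpy 2.4.6, pandas 2.3.3 and scipy 1.17.1 were used. The calling of genes at least 2-fold apart was checked on simulated counts, and the motif search on planted motifs. The depth estimate, the intervals and the overlaps were not checked in this way.

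The members and lists were chosen with earlier results of these data known. Named genes are the 9 members, Thra, Srrd from the series title, and Alas1 and Hmox1, which check the exposure. Up to 4 genes with the largest log2 ratios of each other list are also named, and others are given as illustration. Alternatives changed the pseudocount, the filter and the scaling, and Nr1d1 was also summed with its neighbour Thra. The list of macrophage markers held 6 names, of which Adgre1 matched no row and was not analysed here. Some genes of the lists enter the counts but are not reported here by name.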

Additional observations from a re-analysis of the deposited data

How the results depend on the processing

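Under a pseudocount of 0.1 and under centring on the median of measured genes, all 10 results were kept. The log2 ratios and the median of the members moved by less than counting error. The counts of members at least 1.5-fold and 2-fold apart were unchanged. A pseudocount of 5 drew the log2 ratios of low genes toward 0, by construction: Rora became -0.24, Clock -0.20 and Cry1 0.38, and the number of members at least 1.5-fold apart went from 1 to 0. Scaling both libraries to the same total shifted log2 ratios upward by about 0.08, so that Nr1d2 stood at 0.40 and Nr1d1 at 0.06, the opposite sign of its main value. The sum of Nr1d1 and Thra was at -0.24. This sum takes in all of both genes and reassigns no reads, so it is not a value of Nr1d1 alone. With no filter, Rorb and Npas2 enter and the median of the members was -0.02. The other 6 measured members kept their sign under every scaling and pseudocount tried. Counts over all measured genes moved too: at least 2-fold apart were 383 genes, 691 with a pseudocount of 0.1 and 73 with 5. At least 1.5-fold apart were 1427 genes and 493 with a pseudocount of 5. No paired analysis was possible because each group has 1 library. Depth limits Rorb and Npas2, with at most 5 reads in a library.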
